A study of Mus musculus with 28 samples.

Results

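The comparison described here set tumors grown in mice against the same cells grown in dishes, for 3LL cells that lacked both KEAP1 and NRF2 (double knockout, DKO). 3LL is the Lewis lung carcinoma line, a mouse lung cancer that grows in C57BL/6 hosts without rejection. The members were the 4 libraries of DKO tumors and the 4 libraries of cultured DKO cells, 8 of 28 libraries in the series, read over every row that carried a gene symbol: 18509 of 43143 rows, of which 13664 held enough reads to be tested. DKO cells were a single-colony clone: KEAP1-KO cells, themselves a single colony with a homozygous insertion of 1 base at a Cas9 site in exon 2 of Keap1, were cut again in exon 5 of Nrf2 (Nfe2l2) and carried an insertion of 1 base on one allele and a deletion of 1 base on the other. The cultured cells grew in RPMI medium with 10% serum. The tumors grew under the skin of the right flank of male albino C57BL/6 mice, 6 weeks old, that bore KEAP1-KO tumors on the left flank (Experiment B), and were taken on day 10. 2 further pairs of groups served to test whether a difference was particular to DKO: KEAP1-KO tumors of Experiment B against KEAP1-KO cells, and WT tumors of Experiment A against WT cells, with 4 libraries in each group. Only the injected cells were edited. The blood vessels, fibroblasts and leukocytes of the host carried intact Keap1 and Nrf2 in every tumor. Nothing in the labels says whether the 4 culture libraries came from separate cultures, so the p-values below measure the spread between these libraries, which may be technical.

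NRF2 is a transcription factor that turns on antioxidant, glutathione and NADPH-producing genes, and KEAP1 is the adaptor that marks it for destruction. Cells without KEAP1 accumulate NRF2, while cells without both have no such activity. A tumor under the skin differs from a dish in 3 ways that leave marks in RNA: it holds host cells, its cells meet signals such as interferons and growth factors, and its nutrients and oxygen arrive through vessels instead of medium. Serine synthesis, amino acid import and tRNA charging are governed by ATF4, a factor made when amino acids run short or the endoplasmic reticulum is stressed. Cholesterol synthesis is governed by SREBP2, which is released when membrane sterol is low. Interferons act through the interferon-stimulated response element of their target genes.

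Values are log2(normalized count + 4), and the text gives normalized counts per library for the main rows, and differences of mean log2 values with their standard errors for most. Each row stood either for a gene or for a single transcript of one. Among the rows with a symbol, 8420 were gene rows and 10089 transcript rows, of which 4187 were retained-intron transcripts. A symbol on a transcript row speaks for that transcript only, so the kind of row is given with each gene whose values are described library by library, and levels were not compared between genes. The libraries held 4222376 to 5806525 reads in DKO tumors and 6030633 to 7499251 in DKO cells. The DKO tumor libraries correlated with each other at Pearson's r between 0.918 and 0.928 across rows, the DKO cell libraries at 0.934 to 0.944, and tumor with cell libraries at 0.794 to 0.816. The median difference over all rows tested was 0.25, and it depended on the scaling of the libraries. It was −0.04 after quantile normalization, −0.12 after median centring, 0.60 when the 20 highest rows were left out of the totals and 1.25 when the libraries were set to an equal total of ribosomal protein rows. A call is therefore said below to hold only where the row passed in the same direction under all 5 scalings. Calls of described rows without that property are named, while for most lists the number that held is given. The share of all rows called, 32.5% higher and 19.8% lower, or 19.2% and 3.15% under all 5 scalings, is the background for every list below. Transcripts of near-identical relatives (class I MHC, Gbp, Ifit, Oas, Hspa1 and globin genes) could share reads in the authors' quantification, and their values are uncertain to that extent.

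DKO tumors and DKO cells differed over much of the table. At an adjusted p under 0.05 (limma, Benjamini-Hochberg), 9427 of 28993 rows (32.5%) were higher in tumors and 5751 (19.8%) lower. Under all 5 scalings the counts were 5572 (19.2%) higher and 912 (3.15%) lower. The balance turned with the scaling: quantile normalization gave 6775 higher and 7243 lower, median centring 5665 and 8196, the totals without the 20 highest rows 13680 and 3808, and the ribosomal protein total 20431 and 912. In 8461 rows (29.2%) every tumor library lay above every cell library, and in 5424 rows (18.7%) below. Among the rows with a symbol, 4621 were higher, 3103 of them under all 5 scalings, and 4025 were lower, 666 of them under all 5. Differences of at least 3 on the log2 scale were 548 upward and 35 downward. Of the rows called higher, 423 had no read in any of the 4 cell libraries, and of those called lower 9 had none in any of the 4 tumors.

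**Figure D1:**
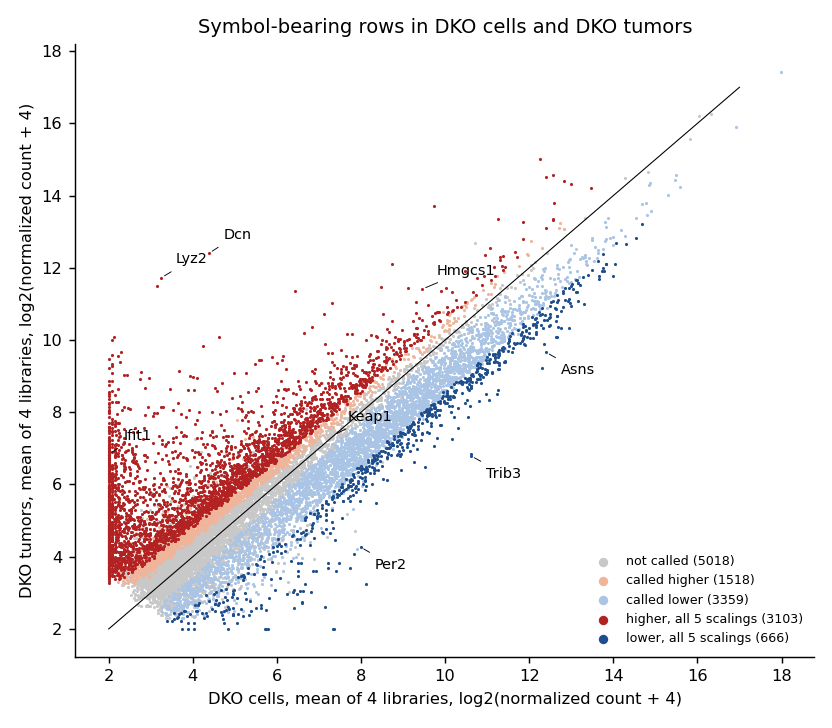
Each point is 1 of 13664 rows with a symbol, at its mean over 4 DKO cell libraries (horizontal) and 4 DKO tumor libraries (vertical), both as log2(normalized count + 4), where 2 stands for no read. Dark red and dark blue mark the 3103 rows called higher and the 666 called lower in tumors under all 5 scalings, and the column of points at the left edge holds rows with no read in culture.

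The edited genes were read first. Keap1 (gene row) stood at 154, 153, 173 and 155 normalized counts in DKO cells and at 148, 172, 179 and 148 in DKO tumors. The groups overlapped, with a difference of 0.02 ± 0.11 (adjusted p = 0.887), which became −0.34 under median centring. Keap1 averaged 696 in WT cells and 189 in KEAP1-KO cells. Nfe2l2 was tested only as a processed-transcript row, at 25.4, 39.9, 19.9 and 35.9 in cells and 47.1, 40.2, 44.5 and 45.2 in tumors. Every tumor lay above every culture, by 0.53 ± 0.17 (adjusted p = 0.011), a call that did not hold under all scalings and was lost without DKO cells replicate 3 (adjusted p = 0.0676). Keap1 was thus lower in both edited lines than in WT cells. Insertions or deletions of 1 base need not change the amount of RNA, and the Nfe2l2 row does not read the edit. Nqo1, the quinone reductase most used as a readout of NRF2, had means of 5614 in KEAP1-KO cells and 514 in WT cells against 96.5 to 112 in the 4 DKO cell libraries.

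By the rule of the 15 highest named rows, the largest differences upward were those of Lyz2, Mrc1, Dcn, Lcp1, Itgam, Mpeg1, Ctss, Sirpa, Selenop, Ctsc, Ccl6, Csf1r, Igfbp3, Laptm5 and C1qb, between 8.47 and 6.86, and all 15 calls held under all 5 scalings. Lyz2 (gene row), the lysozyme of macrophages and neutrophils, stood at 9.77, 7.36, 5.24 and 1.71 in DKO cells and at 3814, 3221, 3908 and 2729 in DKO tumors. The difference was 8.47 ± 0.23 (adjusted p = 1.05e-19). Mrc1 (retained-intron row), the mannose receptor CD206 of tissue macrophages, rose from 2.93, 3.15, 7.33 and 6.83 to 3245, 2944, 2964 and 2374. Dcn (retained-intron row), the collagen-binding proteoglycan decorin made by fibroblasts, rose from between 14.7 and 18.8 to 4756, 4801, 4712 and 8034, by 8.02 ± 0.21 (adjusted p = 3.51e-20). The fourth tumor stood far above the other 3. Ctss (gene row), the cathepsin that trims antigen for class II MHC, had no read in any DKO cell library and stood at 677, 715, 859 and 605 in tumors, at least 242-fold higher against a floor of 3 reads per library. C1qb (gene row), a chain of complement C1q, was likewise unread in cells and stood at 504, 408, 562 and 386 in tumors, at least 158-fold higher.

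The largest differences downward were mostly transcript rows that 1 or more tumors did not hold at all. The 15 were Dnajc7, Vps9d1, Atxn2l, Clasrp, Yy2, Adck5, Trib3, Gnat2, H2bc24, Lrrc40, St13, Per2, Fam207a, Qars and Ube2k, between −5.36 and −3.64. Per2 and Yy2 were gene rows and the other 13 transcript rows. All but Qars held under all 5 scalings, and Qars also lost its call without DKO tumor replicate 2 (adjusted p = 0.053) or 3 (adjusted p = 0.0529). Atxn2l (protein-coding transcript row) shows how such rows behaved: 125, 370, 403 and 305 in cells against 0, 117, 0 and 0 in tumors. Salmon divides reads among the transcripts of a gene, and a shift of reads to another transcript was not told apart here from loss of the gene's RNA. 2 of the 15 fell in every tumor without such gaps. Per2 (gene row), a repressor of the circadian clock, went from 243, 227, 267 and 265 to 15.3, 7.21, 13.8 and 31.6, a fall of −3.72 ± 0.32 (adjusted p = 2.25e-10). KEAP1-KO and WT tumors showed Per2 differences of −4.10 and −2.96, and neither test of DKO against them passed (adjusted p = 0.771 and 0.379). Trib3, the other, is taken up with the ATF4 genes.

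Most lists of host cell genes were higher in tumors. Of the leukocyte list, all 21 in the table were tested, and 21 were higher under all 5 scalings, with a median difference of 4.44. Their summed normalized counts ran from 54.5 to 90.4 in DKO cells and from 3678 to 5646 in DKO tumors, and 5 of the 21 had no read in any culture. Rows pass the filter on low values partly through the group in which they are high, so such counts describe the lists and are not evidence of enrichment. Ptprc (retained-intron row), which encodes CD45 on all leukocytes, had no read in DKO cells and stood at 389, 343, 395 and 281 in tumors, at least 119-fold higher. In bulk tissue, more cells of a type and more RNA per cell cannot be told apart.

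Macrophage and monocyte genes gave 26 of 27 tested higher (28 in the table), all 26 under all 5 scalings, with a median of 5.22. Csf1r (protein-coding transcript row), the receptor that keeps macrophages alive, went from 0, 0, 1.05 and 0 to 694, 607, 705 and 501. Of the neutrophil list 13 of 13 tested were higher (14 in the table, 12 under all scalings), with a median of 3.19. S100a9 (gene row), a subunit of the calprotectin complex of neutrophils, had no read in cells and stood at 64.7, 59.8, 29.1 and 48.6 in tumors. Of the NK cell and killing list 5 of 9 were tested and 5 were higher, with a median of 1.90. Their sum was at most 0.854 in any culture and ran from 69.9 to 160 in tumors. Gzmb (gene row), the protease granzyme B, stood at 17.5, 21.6, 34 and 21.3 in tumors and at 0 in cells. All 6 mast cell genes were higher, with a median of 2.67. Kit (retained-intron row), the stem cell factor receptor of mast cells, stood at 36.2, 38.1, 43.7 and 44.3 in tumors and had no read in culture.

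Lymphocyte genes were sparse. Of 21 T cell genes in the table only 4 passed the filter and 2 were higher, with the list summing to between 81.0 and 136 normalized counts in tumors and 20.5 to 31.6 in cells. Foxp3 (gene row), the factor of regulatory T cells, stood at 12.1, 5.15, 9.71 and 8.53 in tumors and at 0 in cells, and its difference of 1.66 ± 0.27 passed (adjusted p = 1.31e-05). Cd8a (gene row) stood at 19.7, 18.5, 8.90 and 14.5 in tumors and at 10.7, 10.5, 8.38 and 13.7 in cells, overlapping (adjusted p = 0.238). Of 5 B and plasma cell genes 3 were tested and 2 were higher. Ms4a1 (retained-intron row), which encodes CD20 of B cells, went from 6.84, 9.46, 7.33 and 5.12 to 18.6, 20.6, 25.9 and 20.5 (1.19 ± 0.21, adjusted p = 3.23e-05). Ighm, the heavy chain of IgM, went from 5.86, 4.20, 4.19 and 3.42 to 3.29, 15.5, 38 and 23, overlapping in tumor 1, and its call (1.26 ± 0.50, adjusted p = 0.0371) did not hold under all scalings and was lost in 6 of 8 leave-one-out fits. Pax5 (gene row), the factor that commits B cells, was read in culture, at 150, 127, 171 and 167 in DKO cells against 104, 107, 144 and 97.2 in tumors (difference −0.44 ± 0.19, adjusted p = 0.0534). The groups overlapped. Of 8 dendritic cell genes tested (12 in the table), 5 were higher under all scalings (62.5%, against 19.2% of all rows) and 1 was lower without holding (12.5%, against 19.8%).

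Vessels and connective tissue were as plain. All 23 endothelial genes tested (25 in the table) were higher under all 5 scalings, with a median of 3.13, and 8 had no read in any culture. Pecam1 (retained-intron row), the adhesion molecule CD31, went from 7.82, 8.41, 4.19 and 0 to 218, 273, 219 and 237, a difference of 4.85 ± 0.27 (adjusted p = 7.48e-14). Kdr (retained-intron row), the VEGF receptor 2, stood at 163, 142, 148 and 156 in tumors and at no more than 12 in cells. Cdh5 (protein-coding transcript row), VE-cadherin of endothelial junctions, differed in that DKO cells held it in culture, at 49.8, 31.5, 41.9 and 49.5, against 450, 433, 355 and 384 in tumors. Its means were 15.3 in KEAP1-KO cells and 1.34 in WT cells, and 494 and 447 in their tumors. Its tumor-minus-cell difference was thus smaller in DKO than in KEAP1-KO by −1.57 ± 0.28 (adjusted p = 0.000699) and than in WT by −3.31 ± 0.28 (adjusted p = 2.46e-08). Mural cell genes gave 9 of 11 tested higher (13 in the table) with a median of 3.02. Rgs5 (gene row), a marker of pericytes, was unread in cells and stood at 197, 154, 213 and 159 in tumors, at least 61.3-fold higher.

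Fibroblast and collagen genes gave 22 of 25 tested higher (32 in the table), 20 of them under all 5 scalings, with a median of 3.32. Col3a1 (retained-intron row), type III collagen, went from 431, 406, 418 and 446 to 4545, 3483, 5954 and 3889. Col1a1 (gene row), type I collagen, went from 69.4, 63.1, 108 and 37.6 to 482, 1540, 2169 and 137, and the fourth tumor lay close to the cultures. Col1a2 (protein-coding transcript row), the partner chain, stood at 245, 681, 1100 and 46.9 in tumors, and tumor 4 lay inside the range of the cultures, 12 to 76.5. Skeletal muscle genes behaved in the same manner. Ttn (protein-coding transcript row), the spring protein titin, stood at 1029, 413, 873 and 58.0 in tumors and at 9.77, 7.36, 16.8 and 10.2 in cells. The 14 muscle genes in the table summed to 1679, 695, 1395 and 92.1 in tumors 1 to 4 and to 29.4 to 49.5 in cells. Of 5 muscle genes tested 4 were higher with a median of 1.61, and without tumor 4 this was 5 with a median of 2.53. Acta1 (gene row), skeletal actin, did not hold under all scalings and lost its call in 5 of the 8 leave-one-out fits (adjusted p 0.0559 to 0.139). Without tumor 4 the median of the fibroblast list was 3.61.

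**Figure D2:**
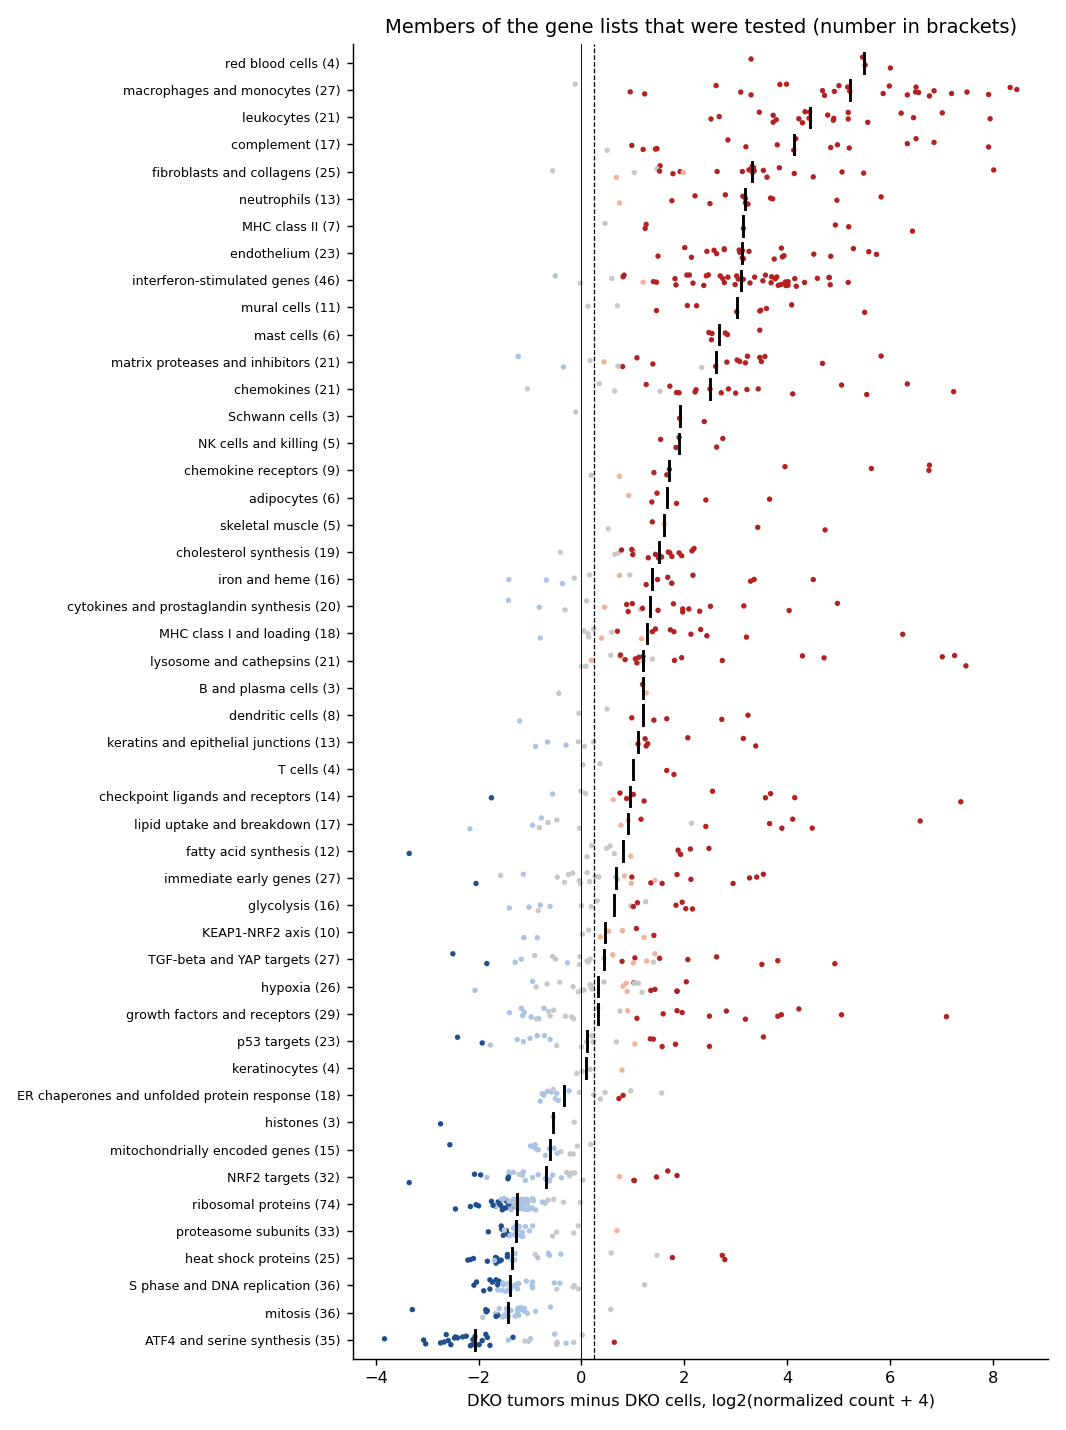
Each point is a tested member of a gene list, at its difference between DKO tumors and DKO cells in log2(normalized count + 4), and the short black line is the list's median. The dashed line marks the median of all rows (0.25). Red and blue mark calls higher and lower under all 5 scalings, pale red and pale blue other calls and grey no call. Most lists of host cells lie to the right, but not the keratinocyte list (median 0.09), and the ATF4 list lies farthest left.

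Red cell genes, 4 of 4 tested (6 in the table), had a median of 5.49. Hbb-bs (gene row), beta globin, was unread in culture and stood at 297, 160, 176 and 493 in tumors, at least 95.4-fold higher. Adipocyte genes gave 6 of 6 tested higher (8 in the table), 5 under all scalings, Schwann cell genes 2 of 3 (4 in the table), both under all, and keratinocyte genes 1 of 4 without holding (25%, against 32.5% of all rows). The labels of tumor and culture were checked against the leukocyte, NK cell, neutrophil and endothelial lists, whose summed levels did not overlap between tumors and cultures. Other lists were not specific to tumors: the macrophage list summed to 1055 to 1196 and the fibroblast list to 1107 to 1592 in cultures, and the B cell and keratinocyte lists overlapped between the groups. The part of host cells in the differences described below was not tested.

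Genes induced by interferon differed between DKO and KEAP1-KO, though hardly between DKO and WT, and promoters of the leading members are shown first because they carry the response element. The element was searched as GAAANNGAA on both strands, in the 250 bases before and 50 after the first start site listed for each gene (RefSeq, GRCm38.p6). It was found in 26 of 35 list members with a promoter entry (74.3%) and in 2317 of 27025 promoters in all (8.57%). In the stretches of 100 bases below, capitals mark each match. Rsad2 lies on the minus strand at chr12:26456518-26456617, Ifit1 on the plus strand at chr19:34640759-34640858 with 3 matches, in part overlapping, and Gbp7 on the plus strand at chr3:142530236-142530335. A match is a description of the letters, not evidence of binding.
Rsad2: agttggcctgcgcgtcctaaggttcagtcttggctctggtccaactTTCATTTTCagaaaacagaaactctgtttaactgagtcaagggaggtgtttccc
Ifit1: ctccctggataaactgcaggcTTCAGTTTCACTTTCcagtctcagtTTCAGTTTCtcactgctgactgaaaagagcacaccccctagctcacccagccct
Gbp7: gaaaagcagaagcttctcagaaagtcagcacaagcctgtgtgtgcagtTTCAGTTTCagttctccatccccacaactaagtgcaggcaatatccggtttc

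Of 46 interferon-stimulated genes tested (49 in the table), 43 were higher in DKO tumors than in DKO cells, 42 of them under all 5 scalings, and 1 was lower. The median difference was 3.10, and 15 of the 46 had no read in any DKO culture. Ifit1 (gene row), which binds viral RNA that lacks a host cap, had no read in the 4 cultures and stood at 141, 73.1, 209 and 67.4 in tumors. It rose by 4.84 ± 0.34 (adjusted p = 6.84e-12), at least 41.6-fold. Rsad2 (nonsense-mediated-decay row), the antiviral enzyme viperin, was unread in cells and stood at 163, 120, 241 and 86.1 in tumors, a difference of 5.19 ± 0.28 (adjusted p = 3e-14). Irf7 (retained-intron row), the factor that amplifies type I interferon, went from 0.977, 2.10, 0 and 1.71 to 162, 75.2, 250 and 127. In each of these rows tumor 3 was the highest. The list summed to 5827, 4610, 8613 and 4260 in tumors 1 to 4, against 1295 to 1409 in cells. Socs1 (gene row), the feedback inhibitor of the receptor kinases, was the member that fell, from 237, 189, 232 and 238 to 134, 159, 169 and 162 (−0.51 ± 0.15, adjusted p = 0.00522), a direction that turned under the ribosomal protein scaling.

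KEAP1-KO tumors did not show this rise to the same degree. The median of the same 46 genes was 0.67 in KEAP1-KO and 3.53 in WT. In KEAP1-KO, 21 were higher in tumors than in cells and 5 lower (against 28.5% and 18.3% of all rows), and in WT 42 were higher (against 28.7% of all rows, with 17.7% lower). The tumor-minus-cell difference was tested directly between genotypes in the same fit. It was larger in DKO than in KEAP1-KO for 814 of 28993 rows (2.81%) and smaller for 607 (2.09%), and under all 5 scalings for 643 (2.22%) and 101 (0.348%). Of the 46 interferon-stimulated genes it was larger for 38, all 38 under every scaling, and smaller for none. Ifit1 gave 4.16 ± 0.48 (adjusted p = 4.21e-06), with means of 0.218 in KEAP1-KO cells and 3.13 in KEAP1-KO tumors. Gbp7 (gene row), a guanylate-binding protein of the interferon gamma response, gave 4.15 ± 0.35 (adjusted p = 4.67e-08). It went from 7.82, 9.46, 10.5 and 6.83 to 294, 279, 486 and 202 in DKO, and from a mean of 80.5 to 111 in KEAP1-KO, so both the culture and the tumor levels differed between the genotypes. Cmpk2 (retained-intron row), a mitochondrial nucleotide kinase, gave 4.07, Gbp3 (gene row) 3.93, Isg15 (gene row), the ubiquitin-like modifier, 2.98, Rsad2 2.97 and Irf7 2.94.

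Against WT, the difference was larger in DKO for 834 rows (2.88%) and smaller for 1122 (3.87%), and under all 5 scalings for 692 (2.39%) and 327 (1.13%). Of the interferon-stimulated genes none was larger and 1 was smaller. Ifit1 gave 0.33 ± 0.48 (adjusted p = 0.783). DKO and WT tumors differed in genotype, experiment and flank together, and these cannot be told apart. Both genotype tests used the same 8 DKO libraries, so they are not independent of each other. Leukocyte genes moved with the interferon genes in the test against KEAP1-KO: 13 of 21 had a larger difference in DKO, 10 under all 5 scalings, and the macrophage list gave 15 of 27. Their part in the interferon result was not tested.

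**Figure D3:**
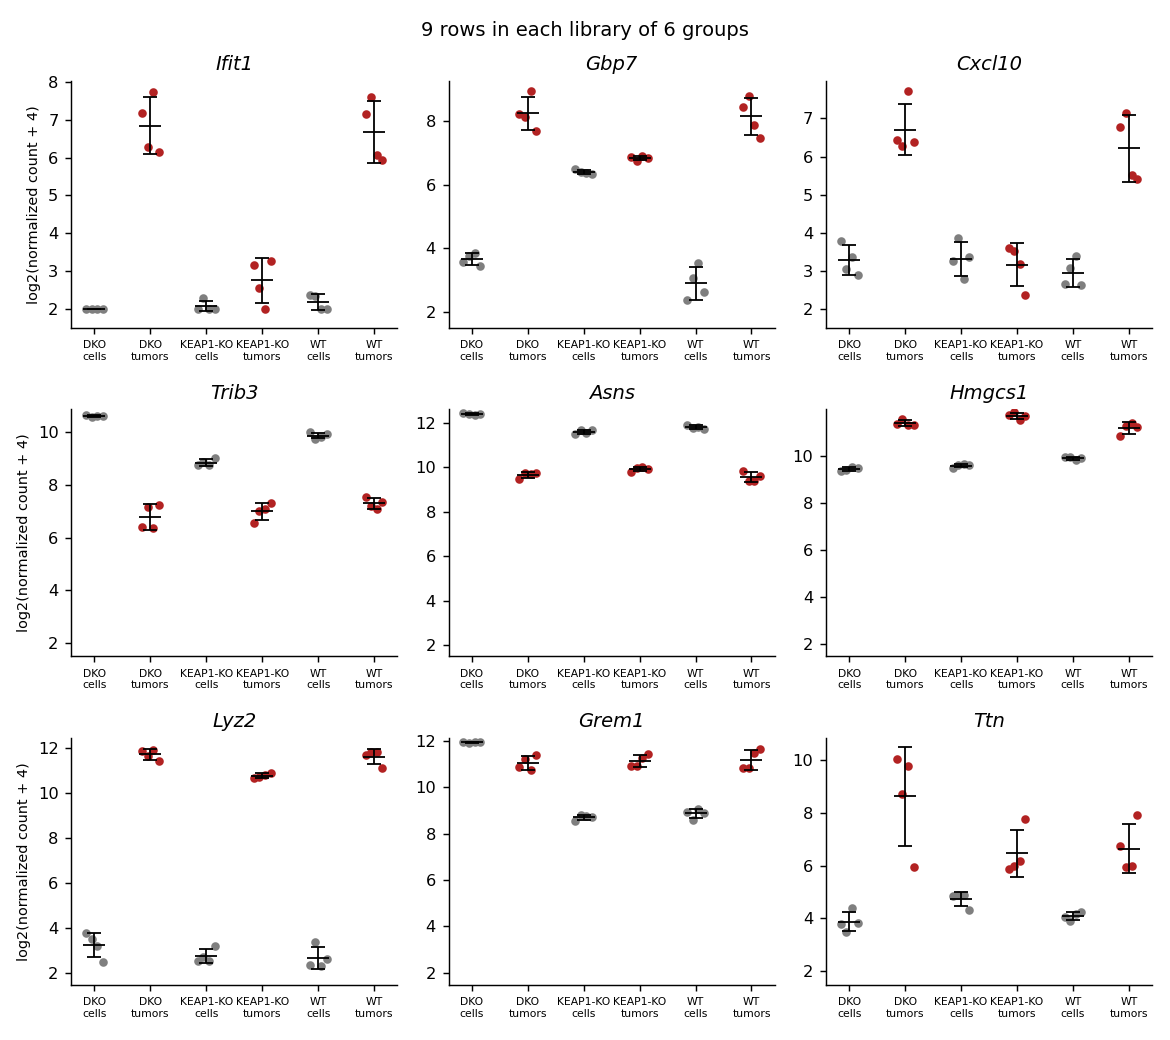
9 rows are plotted in each of 4 libraries of 6 groups, as log2(normalized count + 4) from a lower limit of 1.5, with grey points for cells, red points for tumors, and bars for the mean and SD of 4 libraries. Ifit1, Gbp7 and Cxcl10 are high in DKO and WT tumors and low in KEAP1-KO tumors relative to them, Trib3 is highest in DKO cells, Grem1 differs between the cultures, and Ttn spreads most among DKO tumors.

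Antigen presentation and leukocyte attractants followed. Of 18 class I MHC and loading genes tested (22 in the table) 12 were higher (66.7%, against 32.5% of all rows), 10 under all scalings, and 1, Calr, was lower without holding, with a median of 1.27. H2-K1 (retained-intron row), a classical class I chain, was unread in cells and stood at 286, 278, 406 and 253 in tumors, at least 104-fold higher. B2m (gene row), the shared light chain, was already plentiful in culture at 4083, 4221, 3883 and 3919 and stood at 4635, 5190, 5890 and 5414 in tumors (0.39 ± 0.06, adjusted p = 8.76e-06), without holding under all scalings. The B2m difference was larger than in KEAP1-KO by 0.88 ± 0.09 (adjusted p = 3.94e-07), where the mean went from 4422 to 3145. Of 7 class II genes tested (8 in the table) 6 were higher, median 3.15. Cd74 (retained-intron row), the invariant chain that guards class II, went from 0, 3.15, 0 and 0 to 369, 446, 482 and 311.

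Of 21 chemokines tested (25 in the table) 17 were higher, all under every scaling, with a median of 2.50. Cxcl10 (retained-intron row), which draws T and NK cells and is itself induced by interferon, went from 9.77, 4.20, 6.29 and 3.42 to 83.3, 74.2, 206 and 79.3, a difference of 3.44 ± 0.38 (adjusted p = 2.26e-08). It exceeded the KEAP1-KO difference by 3.59 ± 0.53 (adjusted p = 0.000103). Ccl2 (retained-intron row), which draws monocytes, went from 23.5, 15.8, 25.1 and 11.1 to 148, 182, 189 and 173. Its receptor Ccr2 (gene row) went from at most 1.05 to 493, 492, 532 and 342, and exceeded the KEAP1-KO difference by 2.67 ± 0.49 (adjusted p = 0.00102). Cxcl2 (retained-intron row), which draws neutrophils, went from 0 to 12.1, 8.24, 14.6 and 28.1, a difference smaller than in WT by −2.79 ± 0.59 (adjusted p = 0.00356), where the mean went from 4.92 to 315. S100a9 showed the same order, its difference being smaller than in WT by −2.23 ± 0.58 (adjusted p = 0.019). The NF-kB letters GGGANTTTC, searched on both strands, were found in 4 of 18 chemokine promoters (22.2%) and in 1.15% of all promoters.

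Of 20 cytokine and prostaglandin genes tested (27 in the table) 15 were higher (75%, against 32.5% of all rows), 14 under all scalings, and 2 were lower without holding (10%, against 19.8%), with a median of 1.34. Il1b (retained-intron row), the inflammasome product interleukin 1 beta, was unread in cells and stood at 103, 121, 134 and 133 in tumors, at least 41.6-fold higher. Ptgs2 (protein-coding transcript row), the inducible cyclooxygenase, went the other way, from 1375, 1342, 1412 and 1359 to 412, 505, 418 and 780 (−1.42 ± 0.28, adjusted p = 0.000135), a call that did not hold under all scalings. In WT the mean Ptgs2 level went from 601 to 1418, and the DKO difference was smaller by −2.44 ± 0.40 (adjusted p = 0.00026). Of 17 complement genes tested (21 in the table) 16 were higher, all under every scaling, median 4.13. C3 (processed-transcript row), the central component, went from 2.93, 4.20, 5.24 and 2.56 to 317, 223, 379 and 230, exceeding the KEAP1-KO difference by 2.49 ± 0.31 (adjusted p = 1.3e-05).

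Of 14 checkpoint ligands and receptors tested (17 in the table) 10 were higher (71.4%, against 32.5% of all rows), 9 under all scalings, and 2 were lower (14.3%, against 19.8%), 1 under all. Cd274 (gene row), which encodes PD-L1, stood at 52.8, 43.1, 27.2 and 47.0 in cells and 53.7, 92.7, 118 and 98.9 in tumors, with tumor 1 just above the highest culture. The difference of 1.01 ± 0.22 (adjusted p = 0.000385) was smaller than in WT by −1.69 ± 0.31 (adjusted p = 0.00098). Tigit (gene row), an inhibitory receptor of T and NK cells, was read in culture at 192, 184, 189 and 184 and fell to 39.4, 70.1, 69.6 and 40.1 in tumors (−1.75 ± 0.17, adjusted p = 3.11e-09).

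ATF4 targets and the serine synthesis genes moved down together, with the lowest median of the lists described. Of 35 tested (39 in the table), 28 were lower in DKO tumors, 24 of them under all 5 scalings (against 3.15% of all rows), and 1 was higher. The median was −2.07, and from −2.44 to −0.81 over the scalings. The list summed to 81851, 79160, 81406 and 83042 in DKO cells and to 17390, 20855, 19446 and 19600 in DKO tumors, without overlap. The amino acid response element, searched as TGATGNAA on both strands, a choice made after these values were known, was found in 10 of 33 list promoters (30.3%) and in 4.06% of all promoters. 3 stretches of 100 bases show it in capitals: Asns on the minus strand at chr6:7693210-7693309, Chac1 on the plus strand at chr2:119351003-119351102 and Pycr1 on the minus strand at chr11:120643798-120643897 (RefSeq, GRCm38.p6).
Asns: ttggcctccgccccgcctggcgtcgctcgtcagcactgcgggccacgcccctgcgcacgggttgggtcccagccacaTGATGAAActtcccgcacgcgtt
Chac1: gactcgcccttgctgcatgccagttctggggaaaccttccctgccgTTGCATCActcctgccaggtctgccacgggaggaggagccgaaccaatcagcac
Pycr1: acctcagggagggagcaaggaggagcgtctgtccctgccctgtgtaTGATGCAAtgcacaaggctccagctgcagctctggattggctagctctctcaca

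Atf4 itself (retained-intron row) fell from 6238, 6230, 6622 and 6526 to 1292, 1560, 1311 and 1744, by −2.12 ± 0.10 (adjusted p = 1.1e-15). The enzymes that make serine from a glycolytic intermediate fell as a set. Phgdh (retained-intron row), the first step, went from 5295, 4963, 4837 and 4981 to 513, 615, 762 and 523 (−3.07 ± 0.13). Psat1 (retained-intron row), the second, went from 7972, 7778, 7709 and 7948 to 1181, 1506, 1477 and 1078 (−2.59 ± 0.08). Psph (retained-intron row), the last, went from 785, 705, 665 and 771 to 87.7, 79.3, 98.8 and 80.2 (−3.03 ± 0.12). In none of the 3 did a tumor reach a culture. Asns (processed-transcript row), asparagine synthetase, went from 5577, 5430, 5243 and 5364 to 711, 846, 817 and 854 (−2.74 ± 0.08, adjusted p = 6.65e-19). Pycr1 (protein-coding transcript row), of proline synthesis, fell from 193, 226, 242 and 219 to 53.7, 45.3, 48.6 and 44.3 (−2.11 ± 0.12).

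Stress mediators downstream of ATF4 fell too. Trib3 (processed-transcript row), a pseudokinase that feeds back on ATF4, went from 1605, 1522, 1567 and 1581 to 80, 139, 77.7 and 148 (−3.83 ± 0.19, adjusted p = 8.77e-15). Ddit3 (protein-coding transcript row), the stress factor CHOP, went from 470, 486, 485 and 510 to 63.6, 84.5, 76.1 and 103. Chac1 (gene row), which breaks down glutathione, went from 321, 310, 281 and 301 to 46.0, 62.8, 57.5 and 82.7. Sesn2 (gene row), a leucine sensor, went from 1560, 1356, 1631 and 1715 to 393, 425, 363 and 454. Importers followed: Slc3a2 (protein-coding transcript row), the heavy chain of amino acid exchangers, fell by −1.86 ± 0.08 and Slc7a11 (retained-intron row), the cystine importer that NRF2 also drives, by −2.08 ± 0.29, from 210, 206, 194 and 202 to 37.3, 49.5, 37.2 and 59.7. The exception was Slc38a2 (retained-intron row), the glutamine and alanine importer SNAT2, which rose from 631, 685, 574 and 571 to 874, 1020, 907 and 1035 (0.64 ± 0.08, adjusted p = 3.89e-07).

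The fall was deeper in DKO than in the other genotypes. The list's median was −0.87 in KEAP1-KO and −1.26 in WT. Against KEAP1-KO, 25 of the 35 had a more negative difference in DKO, 19 under all 5 scalings (against 0.348% of all rows), and none a less negative one. Against WT, 18 had, 11 under all 5 scalings (against 1.13%). Trib3 gave −1.97 ± 0.27 against KEAP1-KO (adjusted p = 3.98e-05) and −1.25 ± 0.27 against WT (adjusted p = 0.00459). Its culture means were 460 in KEAP1-KO and 940 in WT, below every DKO culture, and its tumor means were 126 and 155. Sesn2 gave −1.72 ± 0.15 against KEAP1-KO (adjusted p = 6.92e-08) and −1.24 ± 0.15 against WT (adjusted p = 7.73e-06), with culture means of 571 and 784 and tumor means of 500 and 488. Asns gave −1.07 ± 0.12 and −0.49 ± 0.12 (adjusted p = 1.78e-06 and 0.0104, the latter not under all scalings). Phgdh differed least of those named, by −0.65 ± 0.18 against KEAP1-KO (adjusted p = 0.0369), a call that did not hold under all scalings and was lost in 6 of 8 leave-one-out fits (adjusted p 0.051 to 0.0906), and its test against WT did not pass (adjusted p = 0.18). Slc7a11 differed in level as well, with KEAP1-KO means of 860 in culture and 837 in tumors. Atf4 gave −0.88 ± 0.13 against KEAP1-KO (adjusted p = 0.000151, not under all scalings) and −0.87 ± 0.13 against WT (adjusted p = 0.000161). The DKO cells and the other clones also differ by clone, and clone and genotype cannot be told apart.

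**Figure D4:**
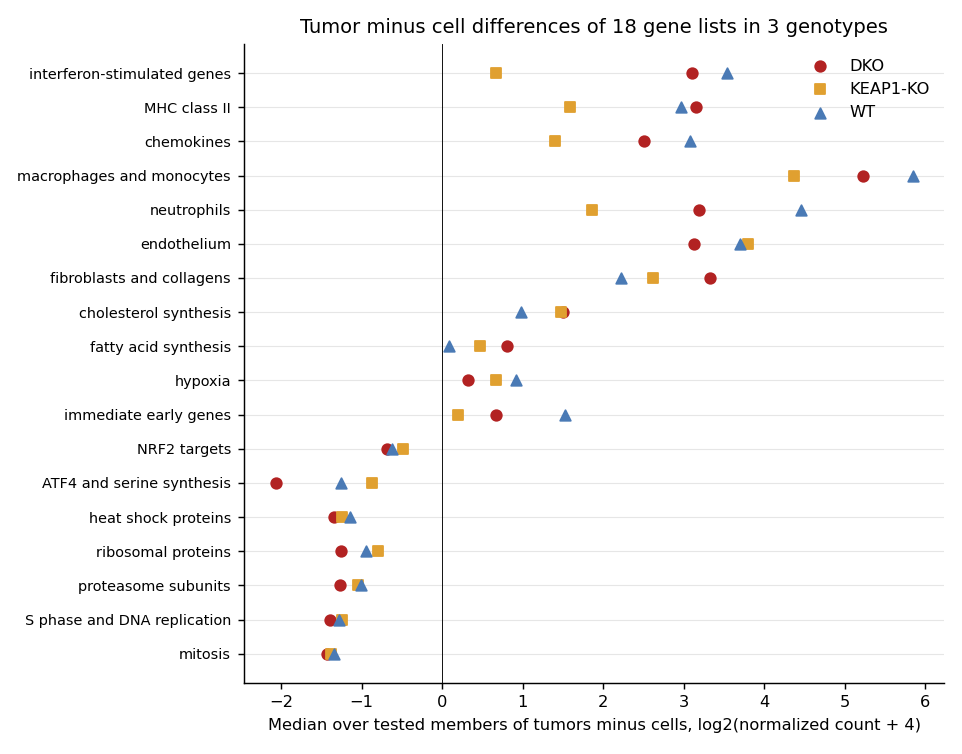
Medians over the tested members of 18 gene lists, as tumors minus cells in log2(normalized count + 4), for DKO (red circles), KEAP1-KO (orange squares) and WT (blue triangles). Interferon-stimulated genes stand at 3.10 in DKO, 0.67 in KEAP1-KO and 3.53 in WT, and the ATF4 list at −2.07, −0.87 and −1.26.

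Genes of protein synthesis and quality control were mostly lower in DKO tumors, but in a manner tied to scaling. Of 74 ribosomal protein genes tested (78 in the table) 68 were lower (91.9%, against 19.8% of all rows), with a median of −1.26. The scaling to ribosomal protein rows fixes the total of these same rows. Under it the median was −0.01 by construction, with 15 higher and 19 lower. The 19 called lower under all 5 scalings are thus not comparable with the 3.15% of all rows. Rpl8 (retained-intron row) went from 17368, 16852, 16558 and 17189 to 6667, 6769, 7003 and 6186. Of 33 proteasome genes tested 27 were lower (81.8%, against 19.8% of all rows), 7 under all scalings (against 3.15%), and 1, Psmd8, was higher without holding, with a median of −1.27. Of 25 heat shock genes 19 were lower (76%, against 19.8% of all rows), 11 under all scalings (against 3.15%), and 3 were higher under all scalings, with a median of −1.35. Hspd1 (protein-coding transcript row), the mitochondrial chaperonin HSP60, went from 15798, 16644, 16454 and 16350 to 3448, 3880, 3885 and 2943 (−2.21 ± 0.07, adjusted p = 2.47e-18). Cct3 (retained-intron row), a subunit of the ring that folds actin and tubulin, fell by −1.83 ± 0.06, and 7 of the 8 genes of that ring (Cct2 to Cct7 and Tcp1) fell under all scalings. Of the 3 members that rose, Hspa1a (gene row), HSP70, went from 2.93, 2.10, 0 and 2.56 to 37.3, 26.8, 19.4 and 70.8 (2.74 ± 0.34, adjusted p = 1.61e-07).

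Chaperones of the endoplasmic reticulum gave 9 lower (50%, against 19.8% of all rows) and 2 higher (11.1%, against 32.5%) of 18 tested (20 in the table), none and 2 under all scalings, with a median of −0.34 that was 0.13 after quantile normalization. Hspa5 (nonsense-mediated-decay row), the chaperone BiP, went from 10872, 11309, 11894 and 12047 to 6363, 7175, 6849 and 7510, a fall of −0.73 ± 0.06 that was 0.54 under the ribosomal protein scaling. Mitochondrially encoded genes gave 10 lower of 15 (66.7%, against 19.8% of all rows), only 1 under all scalings (against 3.15% of all rows). That one was mt-Co2, at 262, 1924, 1743 and 1497 in tumors and 4568 to 8368 in cells, where tumor 1 stood far below the others. The row of mt-Co1 overlapped between the groups (adjusted p = 0.127).

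Genes of proliferation were lower. Of 36 S phase and DNA replication genes tested (40 in the table) 30 were lower (83.3%, against 19.8% of all rows) and none higher as deposited, 9 lower under all scalings (against 3.15%), median −1.39. Of 36 mitosis genes tested (40 in the table) 34 were lower (94.4%), 7 under all scalings, median −1.43. Both medians stayed below 0 under all 5 scalings and reached −0.17 and −0.18 under the ribosomal protein scaling, where 7 S phase genes and 1 mitosis gene were higher. Mcm5 (retained-intron row), of the helicase that opens replication origins, went from 4338, 4286, 4354 and 4319 to 999, 1193, 1240 and 825 (−2.04 ± 0.13). Ccnb1 (retained-intron row), cyclin B1 of mitotic entry, went from 1985, 2034, 1946 and 1971 to 571, 613, 609 and 407 (−1.86 ± 0.14). Cdk1 (retained-intron row), its kinase, went from 2436, 2474, 2546 and 2457 to 824, 820, 915 and 631 (−1.64 ± 0.11). In each of the 3 rows tumor 4 was the lowest. The medians were alike in the other genotypes, −1.24 and −1.38 in KEAP1-KO and −1.28 and −1.35 in WT, and no member of either list passed the test against KEAP1-KO. In the test against WT no mitosis gene passed, while 1 S phase gene was larger and 1 smaller in DKO. Host cells added RNA to the tumors alone, and the part of that in these lower shares was not tested.

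Sterol synthesis moved up. Of 19 cholesterol synthesis genes tested (27 in the table) 15 were higher, all 15 under all 5 scalings (against 19.2% of all rows), and none lower, with a median of 1.5 that ran from 1.14 to 2.73 over the scalings. Hmgcs1 (protein-coding transcript row), a synthase early in the pathway, went from 669, 673, 738 and 722 to 2622, 3112, 2569 and 2617 (1.95 ± 0.10, adjusted p = 5.84e-15). Its promoter held the only match among 19 list promoters (5.26%, against 1.22% of all promoters) to the sterol regulatory element searched as TCACNCCAC on both strands. The stretch at chr13:119690168-119690267 on the plus strand is printed with the match in capitals (RefSeq, GRCm38.p6).
Hmgcs1: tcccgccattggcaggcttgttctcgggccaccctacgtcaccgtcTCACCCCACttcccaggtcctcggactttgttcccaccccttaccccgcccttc

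Idi1 (retained-intron row), which isomerizes the isoprene unit, went from 291, 271, 258 and 272 to 1013, 1240, 1043 and 860. Cyp51 (retained-intron row), the first demethylase after lanosterol, went from 382, 371, 377 and 415 to 1164, 1443, 1277 and 1168. Insig1 (retained-intron row), the sterol-sensing brake and itself an SREBP target, went from 353, 312, 335 and 317 to 1097, 1118, 1034 and 1118. Srebf2 (retained-intron row), which encodes SREBP2, rose by 2.15 ± 0.17, from between 30.7 and 39.1 to between 144 and 196. In all 4 rows the tumors lay far above the cultures. No list member passed the test against KEAP1-KO, whose median was 1.47. Against WT, with a median of 0.98, 8 of 19 differences were larger in DKO (against 2.88% of all rows), 7 under all scalings (against 2.39%). Hmgcs1 gave 0.67 ± 0.14 (adjusted p = 0.0025), Idi1 0.92 ± 0.20 (adjusted p = 0.00407), Insig1 0.92 ± 0.16 (adjusted p = 0.000522) and Cyp51 0.74 ± 0.14 (adjusted p = 0.00179). The list was thus higher in tumors of the 3 genotypes, and the WT test mixes genotype with experiment and flank.

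Fatty acid synthesis gave 5 higher (41.7%, against 32.5% of all rows) and 1 lower (8.33%, against 19.8%) of 12 tested (16 in the table), with 4 and 1 under all scalings. Fads2 (processed-transcript row), a desaturase, rose from 74.3, 62.0, 81.7 and 56.4 to 386, 396, 452 and 366 (2.48 ± 0.16). Me1 (processed-transcript row), the malic enzyme that yields NADPH and an NRF2 target, stood at 0, 65.9, 0 and 0 in tumors and 67.4, 93.5, 63.9 and 99.0 in cells, and was called lower although tumor 2 lay inside the range of the cultures. Lipid uptake and breakdown gave 9 higher (52.9%, against 32.5% of all rows) and 3 lower (17.6%, against 19.8%) of 17 tested (21 in the table), with 7 and none under all scalings. Cd36 (protein-coding transcript row), a fatty acid receptor of macrophages, endothelium and fat, was unread in culture and stood at 82.2, 83.5, 87.4 and 90.4 in tumors. Apoe (processed-transcript row), the lipoprotein made by macrophages, was likewise unread and stood at 64.7, 56.7, 68.0 and 38.4. Abca1 (gene row), the cholesterol exporter, rose from at most 2.10 to 500, 653, 473 and 455.

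Hypoxia genes were called higher about as often as all rows. Of 26 tested (30 in the table) 9 were higher (34.6%, against 32.5% of all rows), 6 under all scalings (against 19.2%), and 2 lower (7.69%, against 19.8%), and the median of 0.32 was −0.04 after median centring. Slc2a1 (protein-coding transcript row), the glucose transporter GLUT1, went from 1398, 1272, 1512 and 1484 to 3037, 4595, 2770 and 5510 (1.43 ± 0.26, adjusted p = 3.89e-05). Adm (gene row), the vasodilator peptide adrenomedullin, went from 34.2, 27.3, 36.7 and 29.0 to 121, 143, 89.8 and 261 (2.04 ± 0.38, adjusted p = 7.39e-05). In both rows tumor 4 was the highest and tumor 2 the next. Vegfa, the main angiogenic factor, was represented by a retained-intron row at 0, 14.4, 24.3 and 39.2 in tumors, overlapping the cultures at 16.2 to 36.7 (adjusted p = 0.093). Ak4, one of the 2 genes lower, did not hold under all scalings and lost its call in 6 of 8 leave-one-out fits (adjusted p 0.0706 to 0.222). The hypoxia core ACGTG was found in 13 of 23 list promoters (56.5%) and in 19.7% of all promoters. Of 16 glycolysis genes tested (19 in the table) 6 were higher (37.5%, against 32.5% of all rows), all 6 under all scalings (against 19.2%), and 4 lower without holding (25%, against 19.8%). Aldoc (gene row), a brain-type aldolase, rose from 2.93, 4.20, 3.14 and 5.12 to 31.8, 27.8, 33.2 and 30.7 (2.16 ± 0.20), and Gapdh (retained-intron row) fell from 46672, 45396, 44917 and 44354 to 20570, 23032, 21607 and 24119, by −1.02 ± 0.09, which was 0.25 under the ribosomal protein scaling.

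NRF2 targets were mostly lower in tumors as deposited, although DKO cells lacked the factor, while the calls under all scalings were divided evenly. Of 32 tested (42 in the table) 20 were lower (62.5%, against 19.8% of all rows), 5 under all 5 scalings (against 3.15%), and 6 higher (18.8%, against 32.5%), 5 under all (against 19.2%). The median of −0.69 ran from −1.05 under median centring to 0.41 under the ribosomal protein scaling, where 19 were higher and 5 lower. Nqo1 (gene row) went from 112, 106, 107 and 96.5 to 67.9, 62.8, 72.0 and 34.1 (−0.84 ± 0.15, adjusted p = 3.23e-05), with 0.37 under the ribosomal protein scaling. Gclc (processed-transcript row), the catalytic subunit of glutathione synthesis, went from 481, 538, 554 and 576 to 190, 227, 205 and 187, a fall that did not hold under all scalings. Txnrd1 (retained-intron row), thioredoxin reductase, went from 2721, 2894, 3107 and 3265 to 1347, 1477, 1505 and 1300, by −1.09 ± 0.06 as deposited and 0.18 under the ribosomal protein scaling. Hmox1 (retained-intron row), heme oxygenase, rose from 363, 366, 413 and 392 to 516, 711, 503 and 928 (0.74 ± 0.20, adjusted p = 0.00242), without holding under all scalings, and tumor 4 was the highest.

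The median of this list was −0.49 in KEAP1-KO and −0.62 in WT, against −0.69 in DKO. All 3 medians cover only the 32 members that passed a filter on the DKO libraries. NRF2 targets with few reads there are left out. Of the 32, 9 were more negative and 2 less negative in DKO than in KEAP1-KO (against 2.09% and 2.81% of all rows), with 3 and 1 under all scalings, and 4 were more negative and 6 less negative than in WT (against 3.87% and 2.88%), with 3 and 4 under all. Nqo1 fell less than in WT by 1.32 ± 0.21 (adjusted p = 0.000189), where the mean went from 514 to 112. Hmox1 rose less than in WT by −1.87 ± 0.28 (adjusted p = 8.71e-05), where it went from 241 to 1560. The antioxidant response element, searched as TGACNNNGC on both strands, was found in 8 of 35 list promoters (22.9%) and in 12.5% of all promoters. Among the partners of the pathway 10 of 15 genes were tested, 6 were higher (60%, against 32.5% of all rows) and 2 lower (20%, against 19.8%), and only Bach1 and Bach2 held, both upward (against 19.2%). Bach1 (retained-intron row), the repressor that competes with NRF2, rose from 78.2, 86.2, 66.0 and 89.7 to 161, 171, 172 and 181 (1.07 ± 0.23, adjusted p = 0.000362). Of 3 candidate secreted factors in the table only Slpi (gene row), a protease inhibitor, was tested. It stood at 32.2, 31.5, 24.1 and 24.8 in cells and 37.3, 37.1, 45.3 and 45.2 in tumors, without overlap, but its difference of 0.50 ± 0.29 did not pass (adjusted p = 0.158).

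Iron genes gave 9 higher (56.2%, against 32.5% of all rows) and 3 lower (18.8%, against 19.8%) of 16 tested (21 in the table), with 8 and none under all scalings. Trf (retained-intron row), transferrin, rose from at most 1.05 to 32.9, 45.3, 40.5 and 40.1. Tfrc (retained-intron row), the transferrin receptor, went from 2795, 2765, 2573 and 2804 to 2101, 2254, 2572 and 1630. Its difference of −0.37 ± 0.12 (adjusted p = 0.0141) was 0.38 after quantile normalization and 0.90 under the ribosomal protein scaling, and lost its call without tumor 4 (adjusted p = 0.0876). It was less negative than in KEAP1-KO by 0.96 ± 0.18 (adjusted p = 0.00103). Fth1 (protein-coding transcript row), the ferritin heavy chain and an NRF2 target, went from 11693, 11840, 11363 and 11429 to 7378, 6550, 7589 and 7381, by −0.68 ± 0.09 as deposited and 0.59 under the ribosomal protein scaling.

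Matrix proteases and inhibitors gave 15 higher (71.4%, against 32.5% of all rows) and 3 lower (14.3%, against 19.8%) of 21 tested (26 in the table), 14 upward and none downward under all scalings, median 2.61. Mmp9 (gene row), gelatinase B, went from 5.86, 2.10, 2.10 and 3.42 to 387, 275, 446 and 569 (5.83 ± 0.43, adjusted p = 1.8e-11). Mmp13 (gene row), a collagenase, rose by 3.23 ± 0.19, less than in WT by −1.52 ± 0.27 (adjusted p = 0.00074) and more than in KEAP1-KO by 1.04 ± 0.27 (adjusted p = 0.023). Timp1 (gene row), an inhibitor of both, went from 533, 469, 517 and 534 to 206, 234, 216 and 210, by −1.23 ± 0.13 as deposited and 0.02 under the ribosomal protein scaling. Lysosome and cathepsin genes gave 17 higher of 21 tested (26 in the table; 81%, against 32.5% of all rows) and none lower as deposited, 14 under all scalings (against 19.2%).

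Growth factors and receptors gave 13 higher (44.8%, against 32.5% of all rows) and 7 lower (24.1%, against 19.8%) of 29 tested (36 in the table), 12 upward and none downward under all scalings. Gas6 (gene row), the ligand of AXL and MERTK, rose from at most 1.05 to 193, 113, 194 and 132 (5.06 ± 0.20). Igf1 (gene row), insulin-like growth factor 1, rose from at most 0.854 to 35.1, 38.1, 74.5 and 12.8, and Igfbp3 (gene row), its binding protein, from at most 3.15 to 554, 606, 563 and 1025. Areg (gene row), the EGF receptor ligand amphiregulin, fell from 628, 643, 539 and 662 to 256, 269, 211 and 401, by −1.14 ± 0.26 as deposited and 0.11 under the ribosomal protein scaling.

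Transcription programs of signaling were mixed. Of 27 immediate early genes tested (32 in the table) 12 were higher (44.4%, against 32.5% of all rows), 9 under all scalings (against 19.2%), and 2 lower (7.41%, against 19.8%). Fos (processed-transcript row), a subunit of AP-1, rose from 7.82, 4.20, 10.5 and 7.69 to 92.0, 90.7, 143 and 151 (3.41 ± 0.36, adjusted p = 1.09e-08). Jun (gene row), its partner, overlapped between the groups, at 3804, 3723, 4241 and 4335 in cells and 3404, 3471, 3382 and 4036 in tumors (−0.17, adjusted p = 0.155), and the sign turned under 3 scalings. Against WT, 11 of the 27 differences were smaller in DKO (against 3.87% of all rows), all 11 under every scaling (against 1.13%). The AP-1 letters TGANTCA were in 0 of 24 list promoters and in 7.93% of all promoters. Of 23 p53 targets tested (26 in the table) 7 were higher (30.4%, against 32.5% of all rows) and 9 lower (39.1%, against 19.8%), with 6 and 2 under all scalings, and the ribosomal protein scaling gave 15 higher and 2 lower.

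Of 27 TGF-beta and YAP targets tested (29 in the table) 12 were higher (44.4%, against 32.5% of all rows) and 5 lower (18.5%, against 19.8%), 8 and 2 of them under all scalings (against 19.2% and 3.15%). Tgfbi (nonsense-mediated-decay row), a matrix protein induced by TGF-beta, rose from 98.7, 108, 112 and 124 to 1272, 1369, 1447 and 1143 (3.51 ± 0.11, adjusted p = 1.41e-18). This exceeded KEAP1-KO by 1.73 ± 0.16 (adjusted p = 9.91e-08) and WT by 1.52 ± 0.16 (adjusted p = 7.03e-07). Thbs1 (retained-intron row), thrombospondin, rose from 58.6, 65.2, 235 and 47.8 to 2088, 3272, 2603 and 2571. Snai2 (gene row), a factor that represses E-cadherin, fell from 842, 838, 930 and 952 to 126, 180, 155 and 158 (−2.50 ± 0.14, adjusted p = 1.19e-13), more than in KEAP1-KO by −1.48 ± 0.20 (adjusted p = 3.85e-05) and than in WT by −1.15 ± 0.20 (adjusted p = 0.00061). Its culture means were 106 in KEAP1-KO and 221 in WT. Cdh1 (gene row), E-cadherin, rose from 0, 2.10, 1.05 and 1.71 to 15.3, 28.8, 20.2 and 10.2 (2.07 ± 0.30, adjusted p = 1.59e-06). Ccn1 (gene row), a YAP target, fell from 1050, 1139, 1208 and 1175 to 357, 517, 430 and 808 (−1.18 ± 0.31, adjusted p = 0.00235), with 0.09 under the ribosomal protein scaling. The WT mean of Ccn1 rose from 213 to 941, and the DKO difference was smaller by −3.04 ± 0.44 (adjusted p = 6.27e-05). Keratin and epithelial junction genes gave 7 higher under all scalings (53.8%, against 19.2% of all rows) and 3 lower without holding (23.1%, against 19.8%) of 13 tested (19 in the table). Tmprss11b (gene row), an epithelial serine protease, rose from 63.5, 80.9, 63.9 and 62.3 to 700, 1165, 463 and 805 (3.39 ± 0.30), exceeding KEAP1-KO by 2.08 ± 0.43 (adjusted p = 0.00349) and WT by 1.82 ± 0.43 (adjusted p = 0.00936). Its tumor means were 37.2 in KEAP1-KO and 18.4 in WT.

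**Figure D5:**
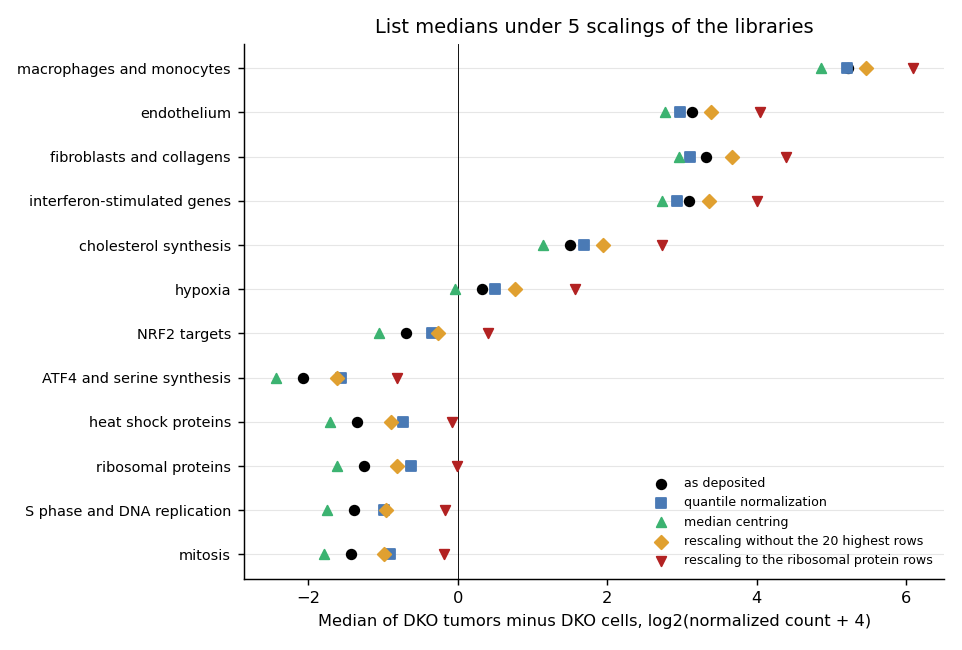
Medians of DKO tumors minus DKO cells for 12 lists under 5 scalings of the libraries, in log2(normalized count + 4). Host cell, interferon and cholesterol lists stay above 0 and the ATF4 list below 0 under all 5, while NRF2 targets run from −1.05 to 0.41 and ribosomal proteins from −1.62 to −0.01.

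Beyond the lists, the rows furthest from the other genotypes were named by rule. Larger than in KEAP1-KO, after the interferon genes, were Cd300lb and Dmtf1 (a nonsense-mediated-decay row). Dmtf1 had few reads, at 0, 0, 0 and 15.4 in DKO cells and 39.4, 18.5, 13 and 31.6 in DKO tumors, and the groups overlapped. It had no read in 3 of 4 KEAP1-KO tumors and in 3 of 4 WT tumors. Cd300lb (gene row), an activating receptor of myeloid cells, went from 0.977, 4.20, 2.10 and 2.56 to 70.1, 67.0, 68.0 and 81.0, exceeding KEAP1-KO by 3.88 ± 0.33 (adjusted p = 6.25e-08). KEAP1-KO cells held a mean of 82.0 in culture and 65.2 in tumors, so the tumor levels were close and the cultures apart. Smaller than in KEAP1-KO were Zfp608 (−6.09), Metap2 (−3.33), Grem1 (−3.30), Mfap3l (−2.92), Rgs16 (−2.25) and Stc1 (−2.22), of which Zfp608 and Metap2 were transcript rows. Grem1 (gene row), the BMP antagonist gremlin, stood at 3871, 3846, 3917 and 3936 in DKO cells and 1845, 2348, 1698 and 2678 in DKO tumors, a fall of −0.88 ± 0.19 that turned to 0.38 under the ribosomal protein scaling. In KEAP1-KO it rose from a mean of 414 to 2252, and in WT from 465 to 2399 (difference −3.20 ± 0.27, adjusted p = 2.32e-08). The 3 tumor levels lay near one another and the DKO culture stood apart. Stc1 (gene row), a calcium-regulating hormone, rose from 11.7, 10.5, 12.6 and 15.4 to 103, 110, 93.9 and 162 in DKO, less than in KEAP1-KO by −2.22 ± 0.30 (adjusted p = 3.51e-05). Zfp608 and Metap2 were transcript rows with gaps, at 0, 76.2, 0 and 0 and at 30.7, 12.4, 8.90 and 0 in DKO tumors.

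Against WT the largest were Aqp1 (5.02), Dmtf1 (3.75), Arhgdib (3.50), Ptpn6 (3.47), Celf2 (3.38) and Tk1 (3.29), all transcript rows but Aqp1. Aqp1 (gene row), a water channel of endothelium and red cells, stood at 5.86, 17.9, 14.7 and 13.7 in DKO cells and 398, 388, 373 and 391 in DKO tumors, while WT cells held a mean of 484 in culture and 358 in tumors. Arhgdib (protein-coding transcript row), a gene of blood cells, went from at most 8.41 to 298, 266, 335 and 234 in DKO, and from 165 to 442 in WT. Ptpn6 (retained-intron row), the phosphatase SHP-1 of blood cells, averaged 92.5 in WT cells and at most 5.25 in any DKO culture. For these 3 rows the cultures differed between the genotypes. Tk1 rested on rows near the floor, and its call was lost in 6 of 8 leave-one-out fits (adjusted p 0.0672 to 0.0927). Smallest were Adamts1 (−4.72), Bnip2 (−3.89), Vps36 (−3.43), Il1rl1 (−3.33), Cdh5 and Grem1, all transcript rows but Grem1. Il1rl1 (protein-coding transcript row), the receptor of interleukin 33, fell from 703, 708, 671 and 713 to 202, 272, 228 and 245 in DKO and rose from a mean of 84.7 to 301 in WT (adjusted p = 1.01e-09). The fall in DKO did not hold under all scalings. Bnip2 did not hold under all scalings and lost its call in 4 of 8 leave-one-out fits (adjusted p 0.0544 to 0.0894).

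The 4 tumors were not alike in every row. The largest SDs over tumors with a mean of at least 100 normalized counts belonged to transcript rows with gaps: H2bc23, Flna, H2bc24, Smc6, Taf1, Plau, Ndst3 and Dst. H2bc23 and Flna had reads in too few libraries to be tested. Smc6, a nonsense-mediated-decay row of a chromosome-maintenance gene, stood at 0, 386, 364 and 205 in tumors. Plau, such a row of the urokinase gene, stood at 40.5, 304, 0 and 291. Neither passed the test between tumors and cells (adjusted p = 0.053 and 0.0629). By contrast, rows with steady values across tumors included Cd36, Fads2 and Kdr, each with every tumor far above every culture.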

How the data were processed

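RNA of tumors and cultured cells was sequenced after removal of rRNA with a directional kit and paired reads of 150 bases, and the authors quantified it with Salmon 1.5.1 on GENCODE mouse transcripts. The deposited values were log2 values, log2(normalized count + 4) by their steps and their minimum of 2, with 1 factor per library; the study's methods name TPM values from Salmon and the iDEP platform for later steps, but which of its filters and transforms made this table was not given in the sources used here. The protocol in the labels speaks of livers of male mice, while titles and methods describe 3LL tumors and cells, which were followed. Library depth was recovered from those steps. Because the table held log2 values and not counts, the differences were tested on them with limma 3.58.1 (R 4.3.3, trend over mean level) in 1 fit of 28 libraries and 7 group means (21 residual degrees of freedom). A row was tested if 4 or more of the 8 DKO libraries held 5 or more normalized counts, and p-values were adjusted (Benjamini-Hochberg) over all 28993. Alternatives were a pseudocount of 0.4, other filters, 4 other scalings, other fits and leaving out each library. The calls under all 5 scalings and the lists without tumor 4 were added after seeing the data. On simulated data of this comparison (28993 rows, 200 changed), 40.5% of all changes were recovered, with 2.41% false calls. The share was 91.94% for changes of 2 and 32.31% for changes of 1 on the log2 scale. The simulation gave all rows the same spread setting and no difference in scaling, so its false calls need not match those here. The members and lists were chosen with earlier results of these data known. Named rows were the edited genes, the 15 highest and 15 lowest called rows without overlap, the extremes of each list with its highest mean and members described, the 6 extremes each way of both genotype tests, and the 8 rows with the largest SD over tumors. Same-numbered libraries were not paired. Promoters came from RefSeq (GRCm38.p6). Python 3.11.15 and pandas 2.3.3 made the summaries. Some members of the lists are not reported here.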

Additional observations from a re-analysis of the deposited data

Results flagged for a closer look

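Some described rows had 1 of 4 libraries far from the other 3. Of 260 groups of 4 libraries whose highest value reached 100 normalized counts, 25 had a gap to the nearest library that, divided by the range of the group on the log2 scale, exceeded the 95% critical value of Dixon's test, which chance passes in about 1 in 20 groups. Among DKO tumors the ratios were Atxn2l (1.0), Calr (0.926), Ccl6 (0.905), Cxcl10 (0.889), Dcn (0.965), Dst (0.846), Flna (1.0), Hmgcs1 (0.894), Igfbp3 (0.856), Itgam (0.879), Itgax (0.832), Jun (0.853), Ptprb (0.833), Slc7a5 (0.878), Smc6 (0.863), Taf1 (0.861), Timp2 (0.834) and mt-Co2 (0.873). Tumor 4 was the one apart for Ccl6, Dcn, Igfbp3, Itgam, Jun, Ptprb and Timp2, and tumor 3 for Cxcl10 and Itgax. Among DKO cells the ratios were H2bc23 (1.0), H3f3b (0.836), Keap1 (0.939), Krt8 (0.838), Qars (0.876), Socs1 (0.877) and Tfrc (0.836). Keap1 was highest in the third DKO culture.

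The tumor-minus-cell difference of rows named for each test differed between genotypes by the interaction test of the limma fit (adjusted p under 0.05). A row was listed only for the test it was named in, so absence from a list does not mean that it did not pass. The values are the DKO difference minus that of the other genotype, in log2(normalized count + 4). Against KEAP1-KO it was larger for Ifit1 (4.16), Gbp7 (4.15), Cmpk2 (4.07), Gbp3 (3.93), Cd300lb (3.88), Dmtf1 (3.83), Cxcl10 (3.59), Isg15 (2.98), Rsad2 (2.97), Irf7 (2.94), Ccr2 (2.67), C3 (2.49), Tmprss11b (2.08), Gzmb (1.74), Tgfbi (1.73), Itgam (1.71), Lcp1 (1.52), H2-K1 (1.36), Tfrc (0.96) and B2m (0.88). It was smaller for Zfp608 (−6.09), Metap2 (−3.33), Grem1 (−3.30), Mfap3l (−2.92), Rgs16 (−2.25), Stc1 (−2.22), Slc7a11 (−1.99), Trib3 (−1.97), Chac1 (−1.96), Sesn2 (−1.72), Cdh5 (−1.57), Snai2 (−1.48), Asns (−1.07), Psat1 (−0.92), Atf4 (−0.88) and Phgdh (−0.65). Against WT it was larger for Aqp1 (5.02), Dmtf1 (3.75), Arhgdib (3.50), Ptpn6 (3.47), Celf2 (3.38), Tk1 (3.29), Tmprss11b (1.82), Tgfbi (1.52), Nqo1 (1.32), Idi1 (0.92), Insig1 (0.92), Cyp51 (0.74) and Hmgcs1 (0.67). It was smaller for Adamts1 (−4.72), Bnip2 (−3.89), Vps36 (−3.43), Il1rl1 (−3.33), Cdh5 (−3.31), Grem1 (−3.20), Ccn1 (−3.04), Cxcl2 (−2.79), Ptgs2 (−2.44), S100a9 (−2.23), Hmox1 (−1.87), Cd274 (−1.69), Slc7a11 (−1.62), Mmp13 (−1.52), Trib3 (−1.25), Sesn2 (−1.24), Snai2 (−1.15), Slc3a2 (−0.99), Atf4 (−0.87) and Asns (−0.49). Some rows listed for 1 test also passed the other. Against KEAP1-KO these included Celf2 (3.26), Ptpn6 (2.39), Aqp1 (2.03), Mmp13 (1.04), Arhgdib (0.79), Slc3a2 (−0.99) and Il1rl1 (−1.04). Against WT they included Cd300lb (1.74), Tfrc (0.62), Stc1 (−1.77), Mfap3l (−1.64), Rgs16 (−1.55) and Psat1 (−0.43). In these tests Il1rl1 and Psat1 did not hold under all scalings. The 2 sets share the DKO libraries.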

How the results depend on the processing

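Counts of rows moved with the scaling, the filter on the mean, the rows tested and the cut on size. Rows higher in DKO tumors numbered 4979 with a log2 difference of at least 1, 5252 with a filter on the mean of 25, 5665 after median centring, 20431 scaled to ribosomal protein rows and 4741 among rows with a symbol. Rows lower numbered 3175 with the cut on size, 3808 without the 20 highest rows and 912 scaled to ribosomal protein rows. Against KEAP1-KO, larger differences numbered 5359 scaled to ribosomal protein rows, and smaller ones 150 with the cut on size, 949 after median centring, 385 without the 20 highest rows and 117 scaled to ribosomal protein rows. Against WT, larger ones numbered 405 and 2274, and smaller ones 363 and 340, with the cut on size and scaled to ribosomal protein rows. Leaving out 1 DKO library gave 8795 to 9031 higher and 5414 to 5581 lower, against KEAP1-KO 685 to 783 and 487 to 597, and against WT 647 to 775 and 892 to 1114. Deviations of same-numbered libraries from their group means hardly correlated (DKO tumors with DKO cells −0.0104 to 0.0118, and with KEAP1-KO tumors grown on the other flank −0.0384 to 0.0151). This cannot tell whether equal numbers mark the same mouse. The replicate block gave 9440 higher and 5766 lower, 800 and 619 against KEAP1-KO and 810 and 1103 against WT, and ended the calls of Psmd8 and of Bnip2 against WT. Differences of single rows that changed sign were, scaled to ribosomal protein rows Areg 0.11, Calr 0.47, Ccn1 0.09, Dpp3 0.40, Fscn1 0.04, Fth1 0.59, Gapdh 0.25, Gpnmb 1.14, Grem1 0.38, H1f0 0.71, Hspa5 0.54, Jun 1.10, Krt14 1.04, Krt8 0.60, Mfap3l 0.22, Nqo1 0.37, Pax5 0.80, Pkp2 0.22, Plin2 1.22, Psmd1 0.09, Rbx1 0.14, Rpl13 0.12, Socs1 0.73, Tfrc 0.90, Timp1 0.02, Txnrd1 0.18, Wnt7b 0.09 and mt-Rnr2 1.19. They were, after quantile normalization Calr 0.02, Fth1 0.04, H1f0 0.09, Hspa5 0.02, Jun 0.67, Krt8 0.06, Plin2 0.58 and Tfrc 0.38. They were, without the 20 highest rows Jun 0.28, Plin2 0.41, Tfrc 0.08 and mt-Rnr2 0.38, and after median centring Keap1 −0.34. The cause was not tested. Of 5801 alternatives to 292 results for single rows, 5539 kept direction and side of the threshold, 142 lost the call, 48 gained one, 41 changed sign as listed and 31 without a call changed sign. Leaving out 1 library ended 58 calls and reversed none. At 4222376 to 7499251 reads a library, differences of rows near 0 reads are understated on the log2(normalized count + 4) scale.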
